A study of Drosophila melanogaster with 12 samples.

Results

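The cytosolic ribosomal protein genes of Drosophila melanogaster are described here in regenerating and undamaged wing imaginal discs, the larval epithelia that give rise to the wings. The genes were chosen by symbol, as those whose FlyBase name starts with RpL or RpS and a number or P, together with sta, leaving out names that contain -like. This rule found 83 genes, all protein coding, among the 17158 genes of the deposited table, 36 of the small ribosomal subunit (40S), 44 of the large subunit (60S) and 3 of the P stalk of the large subunit. RpL19, RpL27A, RpL31, RpS10b and RpS12 also match the rule by name but their identifiers were not matched to a row, and they are not analysed here. The study compared discs of larvae in the third instar in which apoptosis had been induced, called regenerating, with discs kept alike without induced cell death, called control, and sampled both 0 h, 15 h and 25 h after induction. All 6 groups are represented by 2 libraries each, for which 40 discs were pooled. Regenerating and control discs are labelled as different genotypes, with no allele, driver or inducing gene named, so nothing more can be said of either genotype, or of the disc cells in which death was induced.

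A ribosome is built from ribosomal RNA and one copy of almost every ribosomal protein, and the genes of these proteins are among the most highly transcribed in growing tissue. In flies many of them are known as Minute genes. Loss of 1 copy of a Minute gene slows growth, and in the wing disc cells that carry such a loss are removed by their neighbours through cell competition, which ends in apoptosis. Transcription of the ribosomal protein genes and of the genes that assemble ribosomes is promoted by Myc, and translation is set by Tor signalling, which acts through S6 kinase and through Thor, the fly protein that holds back the cap-binding factor.

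Expression is given in FPKM, a fragment number scaled to the length of the transcript and the size of the library, with 1 deposited value per gene and group, which the authors merged over replicates. With 1 value per group there is no spread between libraries, no test and no replicate check for any difference. The FPKM of a column summed to between 1247527 and 1504200, and read depth is unknown. Decimal points lost from 5 of the 6 columns were restored, which touched 196 of the 415 values of the ribosomal protein genes in those columns. Values of the control column at 0 h carry at most 2 decimals, unlike the others, and whether this column is a rounded mean of 2 libraries or 1 library is not known. This bears on every ratio at 0 h and on the step from 0 h to 15 h in control discs. The 9 wing disc marker genes examined (nub, vg, ap, sd, bi, Dll, rn, en and ci) were above 0 in every column, with summed levels between 157 and 351 FPKM. The 7 fat body markers summed to 260 FPKM in control against 405 FPKM in regenerating discs at 0 h, 7.66 and 148 FPKM at 15 h, and 56.6 and 719.7 FPKM at 25 h, with none at 0. The 7 hemocyte markers summed to between 19.1 and 26.1 FPKM, with He at 0 in regenerating discs at 0 h and He and srp at 0 in control discs at 25 h, and the 5 markers of adult muscle precursors to between 26.9 and 51.1 FPKM. Their part in the results on ribosomal protein genes was not tested. In RNA of whole discs, fewer cells of a type and less RNA per cell cannot be told apart.

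Of the 83 genes, 77 stood above 100 FPKM in every column, and these are called expressed here. The other 6 all stood at or below 10.9 FPKM. They include RpL10Aa and RpL37-2, listed at 0 in every column, and RpS10a, RpS19b and RpS28a. The 77 expressed genes were 32 of the small subunit and 45 of the large subunit with its stalk. Between 67 and 74 of them were among the 100 genes of highest FPKM in a column. Their median stood at 4887, 4802 and 5051 FPKM in control discs at 0 h, 15 h and 25 h, and at 6065, 6088 and 7652 FPKM in regenerating discs. The lowest of these medians was therefore that of control discs at 15 h and the highest that of regenerating discs at 25 h.

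**Figure D1:**
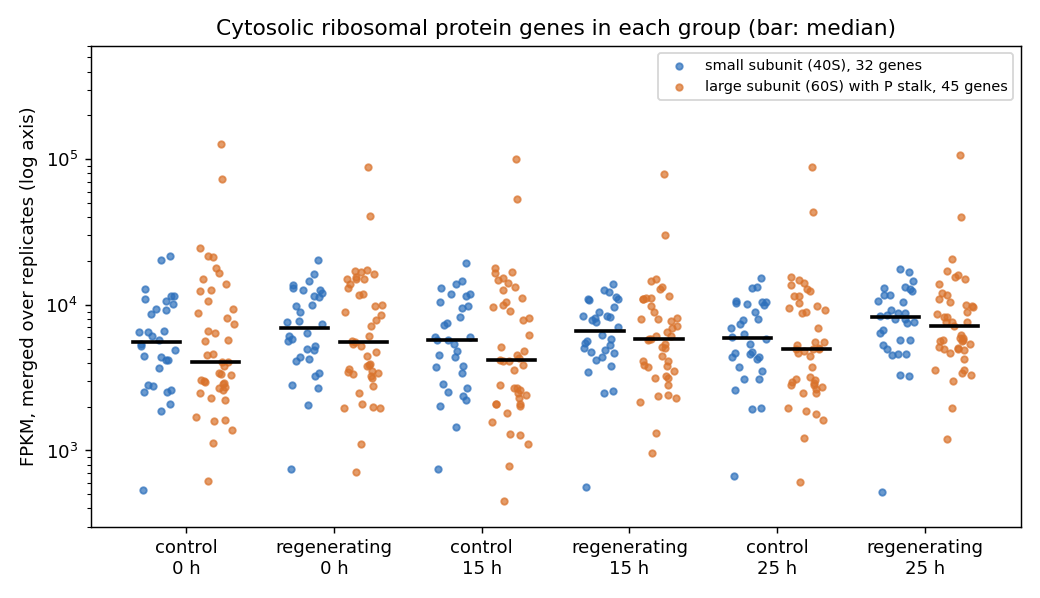
FPKM on a log axis of the 77 expressed ribosomal protein genes in each of the 6 groups, with small-subunit genes in blue, large-subunit and stalk genes in orange and black bars at the medians. In every group the median small-subunit gene lies above the median large-subunit gene, and the highest points, RpL41 and RpL39, stand apart from the rest.

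Levels differed widely among the expressed genes. RpL41, which encodes a very short peptide at the face between the subunits, has a coding length of 75 bases. It had the highest level, at 126386, 99971 and 88715 FPKM in control discs and 88750.4, 78944 and 107356 FPKM in regenerating discs in order of time. RpL39, a small protein in the wall of the tunnel through which the nascent chain leaves, followed at 72855, 53264 and 43506 FPKM in control against 40649, 30346 and 40140.0 FPKM in regenerating discs. The lowest expressed genes were both 1 of a pair of copies, RpS15Ab, at 537, 744 and 673 FPKM in control against 749, 559 and 515 FPKM in regenerating discs, and RpL34a, at 617, 451 and 608 FPKM and 707, 956 and 1206 FPKM. Next to these stood RpL22 with a median of 1171 FPKM over the 6 columns, RpL4 with 1779 FPKM and RpL6 with 1885 FPKM. The 4 genes of highest median, RpL41, RpL39, RpS29 and RpL29, all had a coding length under 300 bases. Next was RpLP2, with a median of 16021 FPKM and a coding length of 339 bases. The 10 expressed genes with a coding length under 300 bases had medians over the columns between 4474 and 94361 FPKM, and the 67 others between 616 and 16021 FPKM. Across the 77 genes, mean log2 FPKM and coding length had a Spearman rho of -0.50, a description across genes that share the libraries and the scaling to length. The sources used here do not state how the effective length of very short transcripts was set.

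The spread among the genes was smaller in regenerating discs. The standard deviation of log2 FPKM over the 77 genes was 1.37, 1.38 and 1.19 in control discs at 0 h, 15 h and 25 h, and 1.21, 1.04 and 1.02 in regenerating discs. The order of the genes was close to the same throughout, with Spearman rho between 0.93 and 0.99 for every pair of columns.

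Ribosomal protein genes held about as much FPKM as all other genes together. Their share of the summed FPKM was 47.5%, 46.7% and 45.9% in control discs in order of time and 51.2%, 49.3% and 54.7% in regenerating discs, higher in regenerating discs at each time. The order at 0 h and 15 h depended on which other transcripts were counted. Genes of the mitochondrial genome and ribosomal RNA genes made up 19.7%, 15.2% and 12.9% of the summed FPKM in control discs but 5.72%, 4.42% and 4.77% in regenerating discs. Without them the share of ribosomal protein genes was 59.2% in control and 54.3% in regenerating discs at 0 h, 55.0% and 51.6% at 15 h, and 52.7% and 57.4% at 25 h, so that the order turned at 0 h and 15 h and stayed at 25 h. Small-subunit genes made up between 31.1% and 36.8% of the FPKM of all ribosomal protein genes.

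**Figure D2:**
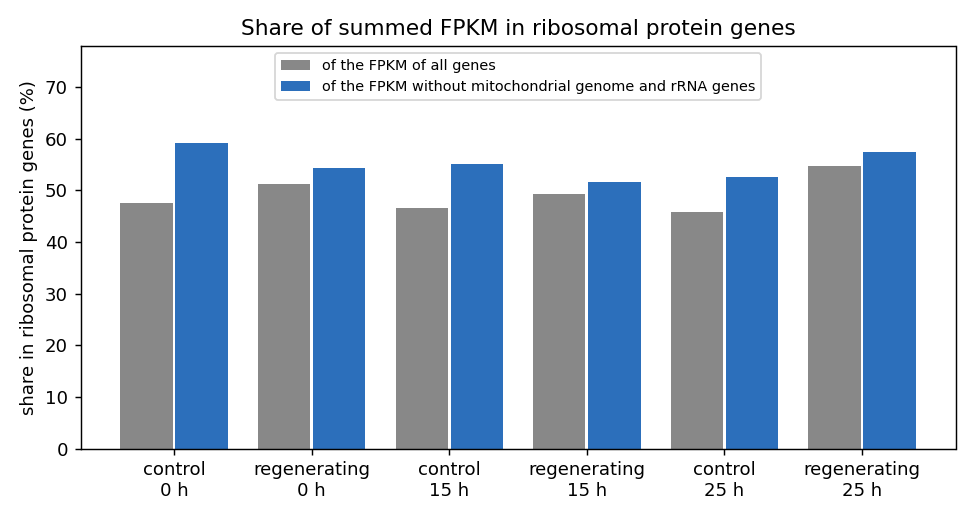
Share of the summed FPKM held by the 83 ribosomal protein genes in each group, of all genes (grey) and of all genes but those of the mitochondrial genome and ribosomal RNA (blue). The grey bars are higher in regenerating than in control discs at each time, and the blue bars only at 25 h, where they stand at 52.7% and 57.4%.

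The comparison at 0 h addressed expression at the first time sampled after induction. Ratios below are log2 of (FPKM + 1) in regenerating over (FPKM + 1) in control discs, and a gene counts as higher or lower if this ratio is at least 1 in size, a factor of 2, and the larger of the pair is at least 1 FPKM. Where a pair of FPKM values is given for a time, the control value comes first. The median of the 77 expressed genes was 0.26, and 61 of them lay above 0. The median of all 8202 measured genes was 0.47, and 18 of the 77 lay above that. Only RpL5 was higher, at 6651 FPKM in control against 15480.2 FPKM in regenerating discs, which is a log2 ratio of 1.22, and no expressed gene was lower. Among all measured genes 7.47% were higher and 3.04% lower. By a looser rule of 1.5 times, 11 of 77 were higher and 2 lower, against 35.7% and 4.13% of all genes.

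The genes at the ends of the range at 0 h belonged to the large subunit, apart from RpS20 and RpS21. RpL5 (FBgn0064225, chromosome 2L, 22532279 to 22536884) carries 5S ribosomal RNA into the large subunit together with RpL11, which stood at 8095 FPKM in control against 9763 FPKM in regenerating discs, a ratio of 0.27. Next were RpL40 at 2979 and 5656 FPKM, RpL37-1 at 3829 and 7199.6 FPKM and RpL14, a Minute gene, at 6455 and 11897 FPKM. At the lower end RpL38 (FBgn0040007, chromosome 2R, 4515388 to 4516458), known in mice for its part in the translation of Hox transcripts, stood at 24462 and 13037 FPKM, a ratio of -0.91. RpL39 had -0.84, RpL41 -0.51, RpS21 -0.49 and RpL29 -0.33, and the coding lengths of these 5 lowest genes were between 75 and 249 bases. Other short genes were not among the lowest, such as RpL37-1 with 279 bases, and RpS27 with 252 bases and a ratio of 0.42. Spearman rho between ratio and coding length over the 77 genes at 0 h was 0.17. The calls at 0 h depended on the scaling of the columns. Median-of-ratios scaling lowered every log2 ratio by 0.54, which brought the median of the 77 genes to -0.29, left 0 higher and made RpL38, RpL39, RpL41 and RpS21 lower. Of all genes, 613 of 8202 were higher and 249 lower as deposited, and 194 and 453 after this scaling.

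At 15 h the ribosomal protein genes fell into a wide band. The median ratio of the 77 expressed genes was 0.22 against 0.35 for all 8095 measured genes, with 52 above 0 and 25 below. RpL34a and RpL4 were higher and 0 were lower, against 5.95% and 2.2% of all genes. By the rule of 1.5 times 23 of 77 were higher and 3 lower, against 29.4% and 4.85% of all genes, shares close to that background. Median-of-ratios scaling lowered every ratio by 0.39, brought the median to -0.17, left 0 higher and made RpL38 and RpL39 lower. Of all genes, 482 of 8095 were higher and 178 lower as deposited, and 132 and 323 after this scaling.

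RpL4 (FBgn0003279, chromosome 3R, 27922821 to 27924888), a long protein with a loop in the wall of the exit tunnel, stood at 1099.8 FPKM in control against 2298 FPKM in regenerating discs at 15 h, a ratio of 1.06. RpL34a (FBgn0039406, chromosome 3R, 26058420 to 26059267) stood at 451 and 956 FPKM, a ratio of 1.08. The next highest were RpL13 at 2078 and 4137 FPKM, RpL6 at 1286 and 2399 FPKM and RpL27 at 2701 and 5024 FPKM. RpL13 missed the rule by little, at 0.99. The lowest were RpL39 at 53264 and 30346 FPKM, a ratio of -0.81, RpL38 at 18017 and 10950.5 FPKM, and RpL10, a late-joining protein of the large subunit, at 16545 and 10933 FPKM. RpS29 stood at 19264 and 13894 FPKM, a ratio of -0.47, and RpS15Ab at 744 and 559 FPKM.

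At 25 h, a time chosen by the study to reach complete re-patterning, most ribosomal protein genes had ratios above 0, few of them past the rule of 2 times. The median ratio of the 77 expressed genes was 0.52, a factor of 1.44, against 0.10 for all 8148 measured genes, and 68 of 77 lay above 0. RpL4, RpS24 and RpL6 were higher and 0 were lower, against 9.11% and 3.19% of all genes. By the rule of 1.5 times 33 of 77 were higher and 0 lower, against 14.9% and 9.73% of all genes. The median after median-of-ratios scaling was 0.48. None of the 77 passed the rule of 2 times after it, with RpL4, RpS24 and RpL6 each falling just short of it. Of all genes, 742 of 8148 were higher and 260 lower as deposited, and 684 and 284 after this scaling. In the same comparison all 7 fat body markers were higher and all 9 wing disc markers lay below 0, with a median of -0.47. What these have to do with the ratios of the ribosomal protein genes was not tested.

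RpL4 stood at 1606 FPKM in control against 3321 FPKM in regenerating discs at 25 h, a ratio of 1.05. RpS24 (FBgn0261596, chromosome 2R, 22640526 to 22641419) stood at 2603 and 5272 FPKM, a ratio of 1.02, and RpL6 (FBgn0039857, chromosome 3R, 31594792 to 31596204) at 1789.9 and 3582 FPKM, a ratio of 1.0003. RpL34b and RpL28 came next, both at 0.99, with 2731 and 5426 FPKM and 2837 and 5624 FPKM. These 5 genes all had moderate levels in control discs, well below the median ribosomal protein gene. The 5 lowest ratios were those of RpS15Ab, RpS15Aa, RpL14, RpL5 and RpL10, between -0.39 and -0.30. RpL5 and RpL14, the highest and the fourth highest at 0 h, thus stood among the lowest at 25 h, with 10232 and 8245 FPKM and 8935 and 7168 FPKM in control and regenerating discs.

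**Figure D3:**
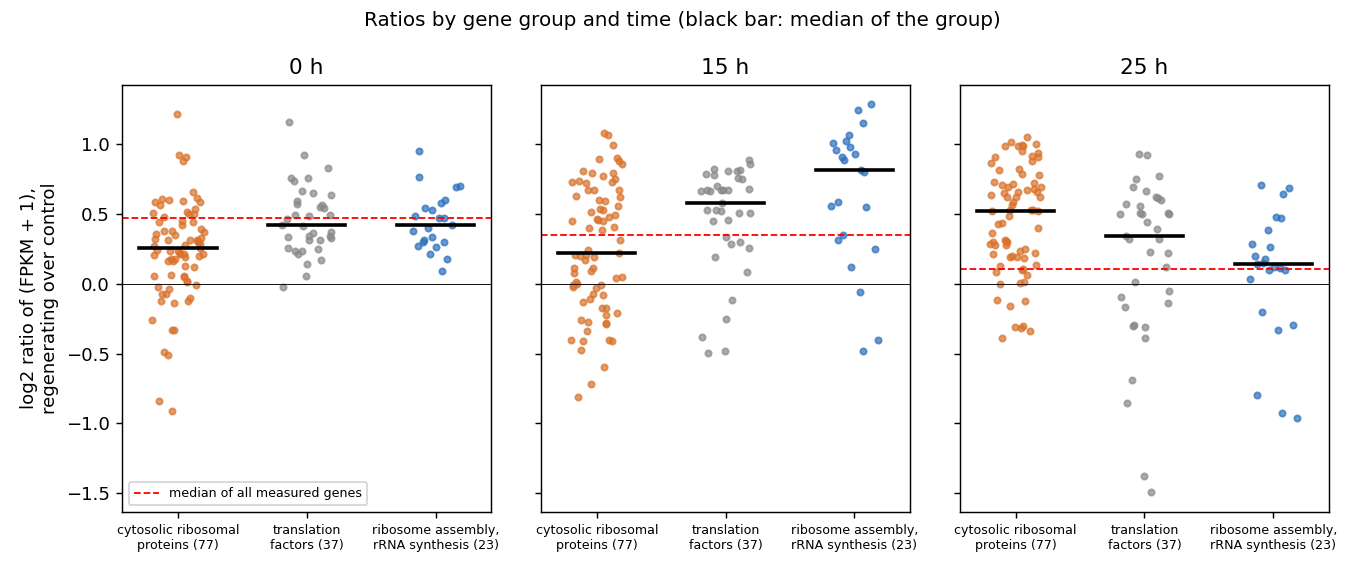
Log2 ratios of (FPKM + 1), regenerating over control, at the 3 times for the 77 expressed ribosomal protein genes (orange), 37 translation factors (grey) and 23 genes of ribosome assembly and ribosomal RNA synthesis (blue), with black bars at group medians and a red dashed line at the median of all measured genes. The ribosomal protein genes lie below the red line by their median at 0 h and 15 h and above it at 25 h, at 0.52 against 0.10.

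How the genes stood against the transcriptome also depended on which genes served as the reference. Other genes of at least 500 FPKM in both columns, a limit chosen after the levels were seen, had median ratios of 0.18 over 150 genes at 0 h, -0.01 over 149 genes at 15 h and 0.04 over 142 genes at 25 h. Against these highly expressed genes the medians of the ribosomal protein genes of 0.26, 0.22 and 0.52 were higher at all 3 times. Genes of the mitochondrial genome and ribosomal RNA genes, whose share of FPKM was lower in regenerating discs, were not left out of this reference. At 0 h 12 of its 150 genes were lower, with ratios down to -3.39. How far such genes bear on the medians of the reference was not tested.

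Ratios within the set followed the level of the gene at 15 h and 25 h. To keep the measures apart, the level of each gene was taken as its mean log2 FPKM in the 4 columns of the other times. The 26 genes of lowest level at 15 h, from 611 to 4105 FPKM, had a median ratio of 0.73, with 19 higher by 1.5 times, against 29.4% of all genes. The 26 genes of highest level, from 8880.1 to 101665 FPKM, had a median of -0.22, with 20 below 0. At 25 h the genes of low level had a median of 0.76, those of middle level 0.53 and those of high level 0.16, with 21 of 26, 11 of 25 and 1 of 26 higher by 1.5 times, against 14.9% of all genes. At 0 h the 3 medians were 0.29, 0.31 and 0.02. Spearman rho between ratio and level over the 77 genes was -0.31 at 0 h, -0.79 at 15 h and -0.64 at 25 h. Over 122 other genes of at least 500 FPKM in every column it was -0.03, -0.03 and -0.10. These are descriptions across genes that share the libraries. Coding length went with level, and its own rho with the ratio over the 77 genes was 0.17, 0.41 and 0.45 in order of time.

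**Figure D4:**
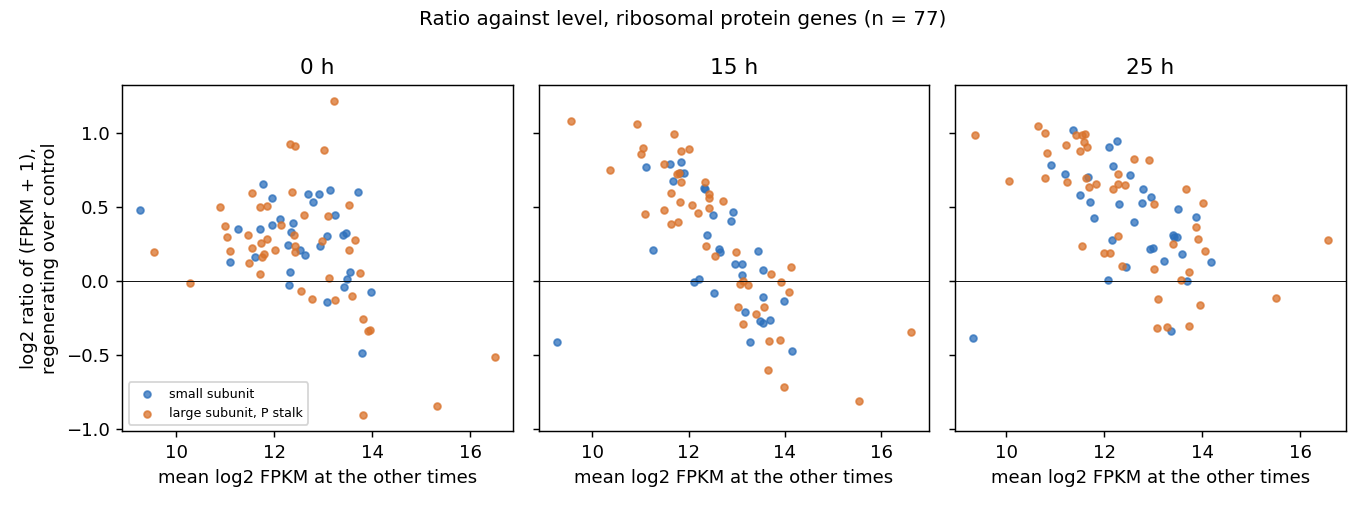
Log2 ratio of (FPKM + 1), regenerating over control, against the mean log2 FPKM of the same gene at the other times, for the 77 expressed ribosomal protein genes at each time, with small-subunit genes in blue. At 15 h and 25 h the points run downward from left to right, with rho of -0.79 and -0.64, and at 0 h they scatter, with rho of -0.31.

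The pattern over genes at 15 h was close to that at 25 h. These comparisons share no column, and the ratios of the 77 genes had a Spearman rho of 0.80 between them, against 0.28 between 0 h and 15 h and -0.14 between 0 h and 25 h. Among the 122 other highly expressed genes the same values were 0.74, 0.53 and 0.09, so the likeness of the later times was also seen outside the set. As deposited, 46 of the 77 genes had ratios above 0 at all 3 times and 2, RpL38 and RpL39, below 0 at all 3. A further 7, which were RpL5, RpL10, RpL14, RpL36A, RpS15Aa, RpS15Ab and RpS25, lay above 0 at 0 h and below 0 at both later times. Of all measured genes, 7190 of 8202 lay above 0 at 0 h, 6117 of 8095 at 15 h and 4817 of 8148 at 25 h. Median-of-ratios scaling lowered every ratio by 0.54, 0.39 and 0.05 in order of time. The counts of signs therefore hold only for the values as deposited.

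**Figure D5:**
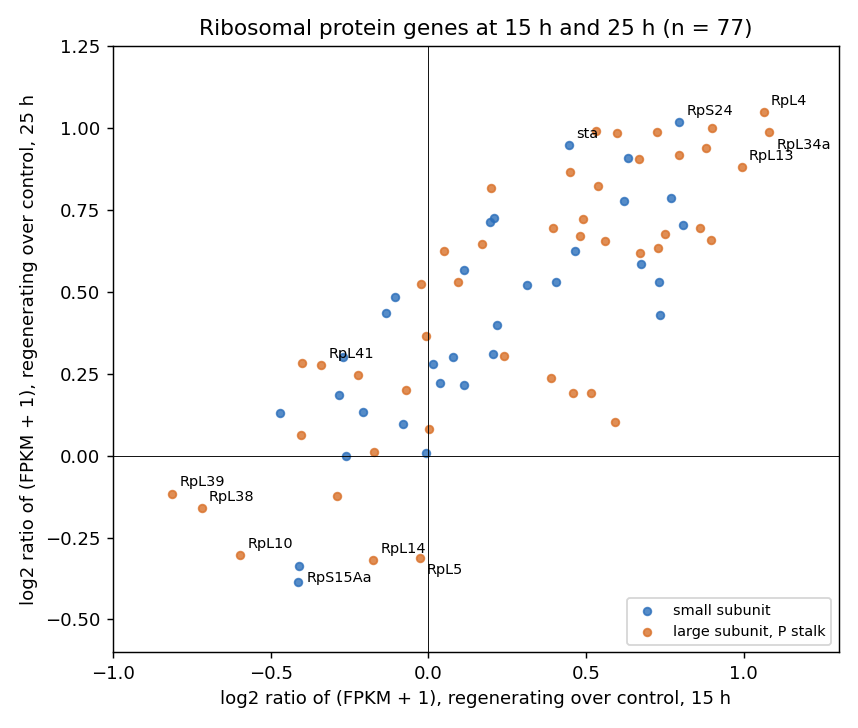
Log2 ratios of (FPKM + 1), regenerating over control, at 15 h and 25 h for the 77 expressed ribosomal protein genes, with 12 genes named. Points run from RpL39 and RpL38 at the lower left to RpL4 and RpL34a at the upper right, and most lie above 0 on the 25 h axis.

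In the small subunit, the 32 expressed genes had median ratios of 0.32, 0.15 and 0.43 in order of time, with 9 higher by 1.5 times at 25 h, where 14.9% of all genes were. RpS3, a Minute gene whose product lies where the messenger enters the ribosome, stood at 4447, 4539 and 4693 FPKM in control against 5844, 5638 and 6739 FPKM in regenerating discs. RpS6, the substrate of S6 kinase, stood at 2529.7, 2379.7 and 3077 FPKM in control against 3222, 3796 and 4614 FPKM in regenerating discs. As deposited, each was higher in regenerating discs at each time, though neither was past 2 times at any. RpS3 had ratios of 0.39 at 0 h and 0.31 at 15 h, below the medians of all genes of 0.47 and 0.35. RpS6 had 0.35 at 0 h, also below 0.47. Median-of-ratios scaling, which lowered ratios by 0.54 at 0 h and 0.39 at 15 h, puts these ratios below 0. The gene sta, whose product belongs to the laminin receptor family and is a small-subunit protein, was close to equal at 0 h, with 5422 FPKM in control against 5648 FPKM in regenerating discs, and stood further apart at 25 h, with 4355 and 8402 FPKM, a ratio of 0.95. RpS26, near the exit of the messenger, went from 4166 and 4929 FPKM at 0 h to 4272 and 8012 FPKM at 25 h, a ratio of 0.91. RpS25 stood at 10695 and 16267 FPKM at 0 h and at 13218 and 13194 FPKM at 25 h. As deposited, small-subunit genes thus differed in when the gap between regenerating and control discs was widest.

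Other small-subunit genes fell between these. RpS13 stood at 2620.5, 2668 and 3499.5 FPKM in control against 3409, 4666 and 5704 FPKM in regenerating discs, and RpS4 at 1870.2, 1460.1 and 1923 FPKM against 2046, 2489 and 3316 FPKM. Their ratios were 0.81 and 0.77 at 15 h and 0.70 and 0.79 at 25 h. As deposited, RpS20 and RpS15 kept a like ratio throughout, RpS20 between 0.53 and 0.73 and RpS15 between 0.40 and 0.54. Relative to the median of all genes, RpS20 had 0.18, 0.38 and 0.43 in order of time, and RpS15 0.07, 0.05 and 0.43. RpS23, at the centre where codons are read, had ratios of 0.32, 0.08 and 0.30, and stood at 10670.3 and 13146 FPKM at 25 h in control and in regenerating discs. RpS27 had 0.42 at 0 h and 0.01 at 25 h, with 4575 and 4598 FPKM there. RpS30, made as a fusion to a protein like ubiquitin, stood at 11505 and 12013 FPKM at 0 h and at 10405 and 14568 FPKM at 25 h. RpS9 was below 0 at 0 h, at -0.14, and had 0.57 at 25 h, with 7885 and 11676 FPKM.

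In the large subunit, the 45 expressed genes had median ratios of 0.22, 0.45 and 0.62 in order of time, with 24 higher by 1.5 times at 25 h, against the same 14.9% of all genes. RpL3, next to the centre that joins amino acids, stood at 1703, 1569.8 and 1951 FPKM in control against 1961, 2144 and 3558 FPKM in regenerating discs. RpL17, at the exit tunnel like RpL4, stood at 2708, 2087 and 2469 FPKM in control against 3158, 3158 and 4887 FPKM in regenerating discs. For both, the ratio was highest at 25 h. RpL39, also in the tunnel, went the other way, lower in regenerating discs at each time, with 43506 and 40140.0 FPKM at 25 h. RpL39 (FBgn0023170, chromosome 2R, 24061853 to 24062431) overlaps the 3' end of RpL12 (FBgn0034968, chromosome 2R, 24060378 to 24061860) on the opposite strand. The overlap covers only the bases from 24061853 to 24061860. The sources used here do not state whether reads were assigned by strand. RpL12 itself stood at 2679, 2693 and 3205 FPKM in control against 3805, 4459 and 4978 FPKM in regenerating discs, higher at each time as deposited. RpL22, which in flies carries an additional histone-like stretch, stood at 1117 and 1109 FPKM at 0 h, 779 and 1311 FPKM at 15 h and 1225 and 1959.8 FPKM at 25 h. RpL36, a Minute gene, stood at 9780.0 FPKM in control against 15060.2 FPKM in regenerating discs at 25 h. RpL18 stood at 2096 and 3862 FPKM at 15 h, and its control value is 1 of the few whole numbers that were kept as deposited.

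Among the further large-subunit genes, RpL7, RpL35A and RpL8 had ratios above the median of all genes at both later times. RpL7 stood at 2596 FPKM in control and 4125 in regenerating discs at 15 h and at 3048 and 5712 FPKM at 25 h, with ratios of 0.67 and 0.91. RpL35A had ratios of 0.86 and 0.69 at these times. RpL8 had 0.54 and 0.82, and stood at 5051 and 8943 FPKM at 25 h. RpL24 had 0.20 at 15 h, at 6222 and 7134 FPKM, and 0.82 at 25 h, at 5583 and 9839.9 FPKM. RpL15 stood at 14935, 14808 and 11589 FPKM in control against 13906, 11203 and 12097 FPKM in regenerating discs, and RpL21 at 17888, 16937 and 12775 FPKM against 14973, 12832 and 15533 FPKM. Both had a ratio of -0.40 at 15 h. RpL32, a gene much used as a reference in fly expression studies, stood at 10595 and 15098 FPKM at 0 h, a ratio of 0.51, at 12573 and 11144 FPKM at 15 h, a ratio of -0.17, and at 11550.1 and 11628 FPKM at 25 h, a ratio of 0.01. As deposited, the order of the conditions for RpL32 thus differed between 0 h and 15 h. Its ratio at 0 h was close to the median of all genes, 0.47. It was also smaller than the 0.54 by which median-of-ratios scaling lowered every ratio at 0 h. After that scaling the order was therefore the same at 0 h and 15 h.

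The P stalk, which recruits the elongation factors, did not move as a block. RpLP0, its base, stood at 2608, 2479 and 2888 FPKM in control against 3935, 3242 and 3406 FPKM in regenerating discs, with ratios of 0.59, 0.39 and 0.24. RpLP1 had ratios of 0.24, 0.67 and 0.62, and stood at 4982 and 7652 FPKM at 25 h. RpLP2 had ratios of -0.33, 0.09 and 0.53, and stood at 21252 and 16892 FPKM at 0 h. As deposited, the gap was thus widest at 0 h for the base and at the later times for the arms of the stalk. This timing depended on the reference. Relative to the median of all genes, RpLP0 had 0.12, 0.03 and 0.13 in order of time. RpLP1 had -0.23, 0.32 and 0.52 by this measure, and RpLP2 -0.80, -0.26 and 0.43.

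RpL40 and RpS27A encode a ribosomal protein joined to ubiquitin, and their ubiquitin part is shared with polyubiquitin genes, so their separate values are uncertain. RpL40 stood at 2979, 4169 and 4982 FPKM in control against 5656, 5723 and 5691 FPKM in regenerating discs, nearly level over time in the latter. RpS27A stood between 9879.7 and 10126 FPKM in control and between 11381 and 12573 FPKM in regenerating discs. As deposited, for each gene every regenerating value was above every control value. RpS27A had ratios of 0.31 at 0 h and 0.20 at 15 h, below the medians of all genes of 0.47 and 0.35. Median-of-ratios scaling lowered ratios by 0.54 at 0 h and 0.39 at 15 h, which puts these ratios of RpS27A below 0.

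The rule holds 8 pairs of gene copies. In pairs such as RpL10A, RpL37, RpS19 and RpS28, 1 copy made up nearly all of the pair's FPKM. RpS19b contributed at most 0.319% of its pair. With genes of low level counted, such as RpS10a at 0 and 1.45 FPKM, 5 of 80 measured genes were higher at 25 h, against 9.11% of all genes. RpS28a, at 1.01 and 0 FPKM, was the only member lower at 0 h, where 1 of 80 was higher and 1 lower, against 7.47% and 3.04% of all genes. Genes listed at 0 give no fold and these values rest on very low levels.

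Both copies were expressed in 3 pairs. RpS14a (FBgn0004403, chromosome X, 7933742 to 7934677) and RpS14b (FBgn0004404, chromosome X, 7934898 to 7935792) are near-identical neighbours, and RpS14b held between 24.5% and 33.4% of the pair. RpS15Aa on chromosome X and RpS15Ab on chromosome 2R had nearly the same ratios at each time, 0.44 and 0.48, -0.41 and -0.41, and -0.34 and -0.39, with RpS15Ab at 5.43% to 6.23% of the pair. RpL34a and RpL34b, both on 3R, had ratios of 0.19 and 0.05, 1.08 and 0.53, and 0.99 and 0.99. Because such copies share sequence, the split of reads between them, and thus each copy's own ratio, is uncertain. Of the genes left out by name, RpL24-like stood between 641 and 1003 FPKM and RpLP0-like between 342 and 447 FPKM. RpL7-like stood at 71.3 FPKM in control against 244 FPKM in regenerating discs at 0 h and at 212 and 154 FPKM at 25 h.

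Between the times within a condition, 0 of 77 expressed ribosomal protein genes passed the rule of 2 times. The shares of all genes past it were 5.02% higher and 2.09% lower from 0 h to 15 h in control discs, 1.01% and 5.3% from 15 h to 25 h, and in regenerating discs 3.26% and 3.68%, and 2.86% and 2.58%. In control discs the median log2 ratio of the 77 genes was -0.09 from 0 h to 15 h, against 0.30 for all genes, and 0.08 from 15 h to 25 h, against 0.15. In regenerating discs it was -0.12 from 0 h to 15 h, against 0.22 for all genes, and 0.32 from 15 h to 25 h, against -0.11. In this last step 70 of 77 genes had ratios above 0. By the rule of 1.5 times 6 of 77 were higher in it, namely RpL3, sta, RpL34b, RpL17, RpS26 and RpS24, and 0 lower, against 5.03% and 11.2% of all genes. From 0 h to 15 h RpL5 was the only one past 1.5 times in either condition, with a ratio of 0.59 in control discs, where 25% of all genes were higher and 4.77% lower, and of -0.66 in regenerating discs, where 16% were higher and 7.85% lower. From 15 h to 25 h in control discs RpL22 alone was past it, with a ratio of 0.65, against 4.57% of all genes higher and 6.19% lower. The consecutive steps share the column of 15 h, and each step shares its columns with the comparisons of regenerating with control discs.

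The genes lie on all major chromosome arms, with 16 on 2L, 17 on 2R, 13 on 3L, 22 on 3R, 14 on X and 1, RpS3A, on 4. The 14 expressed genes on X and the 63 on autosomes had median ratios of 0.29 and 0.26 at 0 h, 0.42 and 0.20 at 15 h, and 0.51 and 0.52 at 25 h. In 27 of the 77 expressed genes the annotation places snoRNA genes, 73 in all, which guide modification of ribosomal RNA and are released from introns. Genes with and without them had median ratios of 0.22 and 0.28 at 0 h, 0.40 and 0.21 at 15 h, and 0.58 and 0.43 at 25 h. Exons of 26 expressed genes overlap another gene. The 51 genes without overlap had medians of 0.31, 0.22 and 0.43, against 0.26, 0.22 and 0.52 for all 77.

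Other genes of translation were compared from lists of gene names. Of 39 translation factors, 37 were matched, with medians of 0.42, 0.57 and 0.34 in order of time. At 0 h 1 of 37 was higher, against 7.47% of all genes. This was eEF1delta, at 694 FPKM in control against 1554 FPKM in regenerating discs. After median-of-ratios scaling 0 of 37 were higher at 0 h, while 194 of all genes were. At 25 h 2 were lower, against 3.19% of all genes, the poly(A)-binding protein gene pAbp at 537 and 190.2 FPKM and eIF4H1 at 174 and 66.3 FPKM. Rack1, a protein of the small subunit that is not named as a ribosomal protein, stood at 1807 and 3082 FPKM at 25 h, a ratio of 0.77. All 23 genes of ribosome assembly and ribosomal RNA synthesis were matched. Their median was 0.42 at 0 h, 0.82 at 15 h and 0.14 at 25 h. Of the 23, 6 passed the rule upward at 15 h, as did 5.95% of all genes, and after median-of-ratios scaling 0 of 23, against 132 of 8095 genes. The nucleolar gene nop5 stood at 80.0 and 196 FPKM at 15 h and at 126 and 204 FPKM at 25 h. By their medians the assembly genes stood highest at 15 h and the ribosomal protein genes at 25 h. Whether these lists differ was not tested. The 71 mitochondrial ribosomal protein genes had medians of 0.32, 0.21 and 0.26.

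Of 13 regulators of translation and growth 11 were matched. Tor and S6k were not matched to a row, so no values are given for them. Their median ratios were 0.62, 0.49 and 0.07 in order of time. Myc stood at 3.05, 9.87 and 7.79 FPKM in control against 5.12, 14.8 and 1.72 FPKM in regenerating discs. It was the only 1 of the 11 lower by the rule at 25 h, against 3.19% of all genes. Thor stood at 8.77, 7.66 and 11.5 FPKM in control against 14.4, 19.8 and 33.5 FPKM in regenerating discs. As deposited, it alone of the 11 was higher by the rule at 15 h and 25 h, against 5.95% and 9.11% of all genes. Xrp1, which acts in the competition of Minute cells, stood at 56.6, 65.0 and 79.2 FPKM in control against 101, 108 and 127 FPKM in regenerating discs, with ratios between 0.67 and 0.83, and did not pass the rule of 2 times at any time.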

How the data were processed

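Poly(A) RNA of 12 libraries, 2 in each of 6 groups, was sequenced after an Illumina TruSeq preparation, per the labels. Grouping followed the sample titles. The authors deposited FPKM, merged to 1 column per group. STAR 2.4.0j, RSEM and the build dm6 appear in the submitters' processing notes without a role. The sources used here do not state how replicates were merged. FPKM without counts leaves read depth unknown. 1 further column with no sample was not used.

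In all columns but control at 0 h, whole numbers of at least 1000 ending in 5 were divided by 1000, which restored 19566 values. The 3 other whole numbers of that size were kept, and 1 value, of no ribosomal protein gene, that fitted both readings was set aside. Symbols came from a table of gene names. Coordinates are those of BDGP6.54 (Ensembl annotation), which is the dm6 assembly.

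The members, lists and rules were chosen with earlier results of these data known. Genes named are the 5 highest and lowest by level, the 5 highest and lowest ratios at each time, genes past the rule of size, gene copies and fixed genes such as RpS3 and RpS6. Further members were named after their values were seen. A few members enter the counts and medians but are not reported by name here. Log2 ratios used a pseudocount of 1 FPKM. With 1 merged value per group, no spread, test or p-value was possible. Alternatives were pseudocounts of 0.1 and 5, no filter and filters of 5 and 50 FPKM, genes above 0 in both columns, median-of-ratios and sum scaling, gene copies left out, and a rule of 1.5 times. Genes of at least 500 FPKM were added after the data were seen. Simulated data were used to test only the restoring of decimal points and the rule of 2 times. Python 3.11.15, pandas 2.3.3, NumPy 2.4.6, SciPy 1.17.1 and matplotlib 3.10.9 were used.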

Additional observations from a re-analysis of the deposited data

How the results depend on the processing

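No paired analysis was possible because 1 merged column per group carries no replicate, and for the same reason no replicate could be left out. Counts here cover the measured members, 80 in each comparison of regenerating with control discs, and relative medians are theirs minus that of all genes. Of all genes, 7.47%, 5.95% and 9.11% were higher in order of time as deposited, and 3.04%, 2.2% and 3.19% lower. By the rule of 1.5 times the shares were 35.7%, 29.4% and 14.9% higher and 4.13%, 4.85% and 9.73% lower. After median-of-ratios scaling 194, 132 and 684 genes were higher and 453, 323 and 284 lower. Counts over all genes under the other alternatives are not given here, so member counts under them have no background. At 0 h the deposited values gave 1 higher, 1 lower and a relative median of -0.22. The count higher was 0 under median-of-ratios scaling, 4 with columns scaled to the same sum and 11 by the rule of 1.5 times. The count lower was 0 with a pseudocount of 5, with filters of 5 or 50 FPKM, above 0 in both columns, scaled to the same sum, with second copies left out and at 500 FPKM or more, 5 under median-of-ratios scaling and 3 by the rule of 1.5 times. At 15 h the counts were 2 higher and 0 lower, and became 0 and 2 under median-of-ratios scaling and 23 and 3 by the rule of 1.5 times. The count higher was 6 scaled to the same sum, and 1 with second copies left out or at 500 FPKM or more. At 25 h the count of 5 higher was 2 with a pseudocount of 5, under median-of-ratios scaling and scaled to the same sum, 3 with filters of 5 or 50 FPKM, above 0 in both columns, with second copies left out and at 500 FPKM or more, and 35 by the rule of 1.5 times. The count lower at 25 h was 0 under every alternative run, and the relative median of 0.42 moved by less than the tolerance of 0.1.

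The relative median at 0 h was -0.094 with a pseudocount of 5, 0.24 with no filter and 0.033 among genes of at least 500 FPKM, an alternative added after the data were seen. At 15 h, from -0.12, it turned to 0.21 with no filter and 0.15 at 500 FPKM or more. Over time in control discs it was -0.088 with no filter, -0.28 with a filter of 50 FPKM and -0.017 at 500 FPKM or more from 0 h to 15 h, and 0.061 with no filter and 0.073 at 500 FPKM or more from 15 h to 25 h. In regenerating discs it was -0.070, -0.16 and 0.037 under the same 3 settings from 0 h to 15 h, and 0.29 with no filter and 0.19 at 500 FPKM or more from 15 h to 25 h. Without a filter, the many genes at 0 in both columns enter the median of all genes. The share of summed FPKM without mitochondrial genome and ribosomal RNA genes was 59.2%, 55.0% and 52.7% in control and 54.3%, 51.6% and 57.4% in regenerating discs in order of time. Apart from that construction and the smaller number of genes under stricter filters, the cause was not tested. Read depth is unknown, so no counting error can be given.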
